A study of Mus musculus with 16 samples.

Results

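The renin-angiotensin genes described here are 9 genes chosen by symbol from the 52459 rows of a mouse count table: the renin gene Ren1, its substrate Agt, the peptidases Ace, Enpep, Anpep and Lnpep, and the receptors Agtr1a, Agtr1b and Agtr2. RNA came from marrow stromal cells of Townes sickle mice, sorted for the absence of CD45, Ter119 and CD31 and the presence of CD51 and CD140a. Both genotypes carry the human alpha globin replacement on both copies (hα/hα). SS mice carry human sickle beta globin on both copies (hα/hα::βS/βS), and SA mice, the controls, carry 1 sickle and 1 normal copy (hα/hα::βA/βS). Each genotype had 4 libraries, numbered as mice in the titles, with 2 lanes each and 1 column of counts for both lanes. The labels give neither age nor sex and name no treatment, and none says more of whether the numbered mice are separate animals. If they were not, the errors below measure only the spread between libraries. Enpep had led to the choice of this set through its SS to SA difference, so the differences of all 9 genes between genotypes are given as a description, and the calls of the tests over all genes are printed without being read as evidence.

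Renin cleaves angiotensinogen, the product of Agt, to angiotensin I, and angiotensin-converting enzyme, the product of Ace, trims this to angiotensin II. Angiotensin II acts on the AT1 receptors, encoded in mice by Agtr1a and Agtr1b, which constrict vessels and promote matrix production, and on the AT2 receptor, encoded by Agtr2, which often opposes them. Aminopeptidase A (Enpep) removes the first residue of angiotensin II to give angiotensin III, aminopeptidase N (Anpep, also called CD13) shortens that peptide further, and Lnpep encodes the insulin-regulated aminopeptidase, which binds angiotensin IV. In mouse marrow Enpep is also known as the BP-1 antigen of early B cells and of some stromal lines, and Anpep as a surface protein of stromal, perivascular and myeloid cells.

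Enpep and Anpep were the members with higher counts in every SS library than in any SA library, and Lnpep is the third aminopeptidase of the same enzyme family (M1), so the promoters of these 3 genes are shown side by side. Each runs from 250 bases before to 50 bases after the RefSeq start on GRCm38.p6, 5′ to 3′ on the strand of the gene. Capitals mark matches on either strand to TATAAA, the core of a TATA box, to a CCAAT box, or to GGGCGG, a GC box. They cover chr3:129332700-129332999 for Enpep, chr7:79848161-79848460 for Anpep and chr17:17624440-17624739 for Lnpep, all on the minus strand. In the GENCODE M21 annotation the Anpep and Lnpep genes reach up to 79861059 and 17625050. Their stretches thus lie inside the genes, and starts farther upstream are not shown. The Enpep gene reaches up to 129332720 there, so its GENCODE start differs from the RefSeq start.
Enpep: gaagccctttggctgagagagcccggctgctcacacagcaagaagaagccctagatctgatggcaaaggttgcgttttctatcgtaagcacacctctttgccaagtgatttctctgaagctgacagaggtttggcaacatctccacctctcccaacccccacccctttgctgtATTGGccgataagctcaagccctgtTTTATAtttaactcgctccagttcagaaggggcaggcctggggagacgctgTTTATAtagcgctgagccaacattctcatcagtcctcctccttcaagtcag
Anpep: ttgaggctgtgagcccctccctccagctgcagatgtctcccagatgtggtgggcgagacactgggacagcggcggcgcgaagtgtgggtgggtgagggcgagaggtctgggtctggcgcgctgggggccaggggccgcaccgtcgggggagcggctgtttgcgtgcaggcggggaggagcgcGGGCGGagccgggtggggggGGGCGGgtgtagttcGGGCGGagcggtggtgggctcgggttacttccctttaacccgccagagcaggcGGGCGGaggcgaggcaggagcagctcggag
Lnpep: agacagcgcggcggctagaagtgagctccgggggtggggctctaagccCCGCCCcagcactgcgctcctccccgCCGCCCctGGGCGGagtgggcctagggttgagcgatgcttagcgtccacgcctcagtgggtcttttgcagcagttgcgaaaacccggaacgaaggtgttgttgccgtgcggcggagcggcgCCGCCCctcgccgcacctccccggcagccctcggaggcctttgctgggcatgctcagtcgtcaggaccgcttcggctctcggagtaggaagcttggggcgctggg

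The Enpep promoter held the TATA letters at 52 and at 1 base before the RefSeq start and the CCAAT letters at 77 bases before it, all on the opposite strand. It was 51.3% G or C with 7 CpG dinucleotides, where the median of 32851 RefSeq promoters of this length was 52.7% and 7. The Anpep promoter held 4 GC boxes and none of the TATA or CCAAT letters, and was 72.3% G or C with 28 CpG. The Lnpep promoter also held 4 GC boxes, at 69.3% G or C with 30 CpG. Of all promoters 13.6% held the TATA letters, 37.4% the CCAAT letters and 35.7% the GC box letters on either strand. The letters of an E-box (CACGTG), an RBPJ core (TTCCCA), an AP-1 site (TGACTCA) and a TEAD core (GGAATG) were searched too and stood in none of the 3 promoters, against 7.2%, 25.6%, 5.2% and 14.7% of all promoters. A match is a description of letters, not of binding. RefSeq promoters were matched for 8 of the 9 members.

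The libraries held 24797857 to 31117007 counts. The gate's genes were present in all of them, Pdgfra (CD140a) at 169 to 481 CPM (counts scaled to a common library size with TMM-adjusted totals) and Itgav (CD51) at 252 to 820 CPM. Itgav averaged 330 CPM in SA and 584 in SS, with overlap (SS minus SA on the log2 scale 0.82, SE 0.27, edgeR adjusted p = 0.695). Pdgfra averaged 338 and 423 CPM (0.32, SE 0.31, edgeR adjusted p = 0.846). Ptprc (CD45), gated out, was still at 49.7 to 748 CPM. SA replicates 1 and 2 and SS replicate 1 held the most leukocyte transcripts, with sums of 2741 to 4637 CPM over 15 pan-leukocyte genes against 352 to 1371 CPM in the other 5. SS replicate 2 had 57347 Xist counts and at most 420 were seen elsewhere, so it reads as female among male libraries. The titles' date-like numbers form 1 set for all SA libraries and 2 sets for SS, of which 1 holds SS replicate 2 alone. These numbers and genotype cannot be told apart. 1 lane of SS replicate 4 is titled SS and annotated SA, and the library was kept in SS. In bulk RNA, fewer cells of a type and less RNA per cell cannot be told apart.

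Per length, Agt was the most abundant member. Its level was 145 ± 57.5 CPM per kilobase of exon in SA and 154 ± 25.9 in SS (SD, n = 4 each, as throughout). Lnpep followed at 15.4 ± 2.76 in SA and 16.1 ± 1.47 CPM per kilobase in SS. Ace was at 13.6 ± 8.37 and 10.5 ± 4.11 CPM per kilobase, which overlapped the Lnpep level in both genotypes. In SA, Anpep at 5.70 ± 1.01 CPM per kilobase lay below Lnpep in each library, and Enpep at 2.23 ± 0.585 below Anpep in each library. In SS, Anpep at 13.0 ± 3.85 and Enpep at 9.56 ± 3.03 CPM per kilobase overlapped each other, Ace and, for Anpep, Lnpep. Agtr1a had the lowest mean of these, 1.18 ± 0.904 in SA and 2.31 ± 2.87 CPM per kilobase in SS, with values that overlapped those of Enpep in both genotypes. Agtr1b and Ren1 were seen in some libraries only, and Agtr2 in none.

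**Figure D1:**
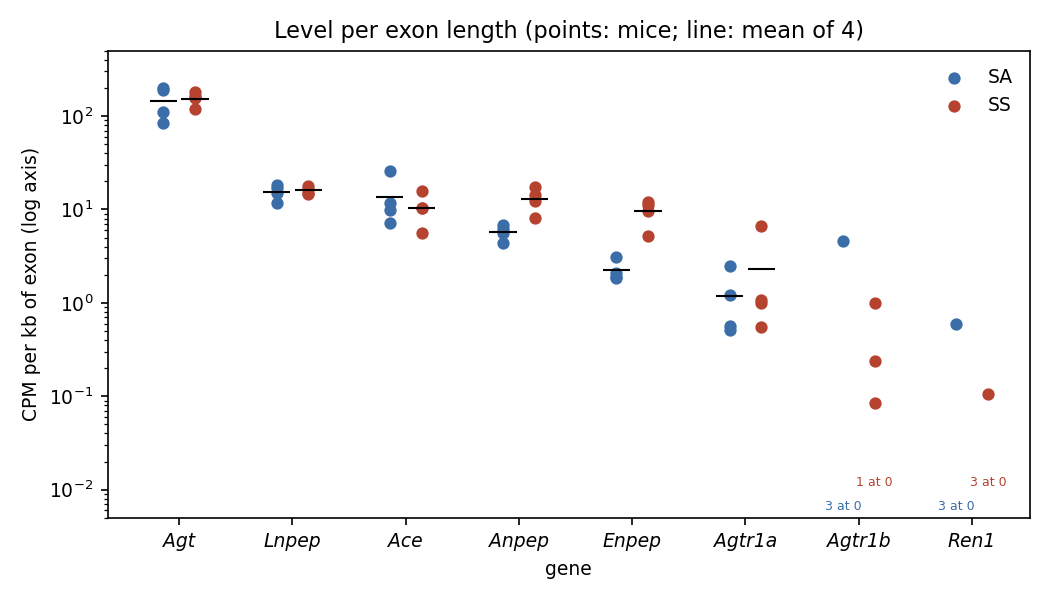
Level of each detected member in CPM per kilobase of exon on a log axis, with 1 point per mouse (SA blue, SS red) and a line at the mean of 4; libraries at 0 are counted at the foot for Agtr1b and Ren1, which have no mean line. Agt lies above all others, and Enpep and Anpep are the genes whose SA and SS points separate.

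Renin transcripts were nearly absent. Ren1, on chromosome 1 (133350510 to 133360325 on GRCm38), had 26 counts in SA replicate 1, 5 in SS replicate 1 and 0 in the other 6 libraries. Some mouse strains carry a near-identical second renin gene, so these reads are uncertain as to their copy. The substrate gene Agt, on chromosome 8 (124556534 to 124569706), was at 208, 158, 358 and 377 CPM in SA replicates 1 to 4 and at 223, 292, 309 and 339 CPM in SS replicates 1 to 4. The genotypes overlapped throughout, and the 3 lowest libraries were SA replicates 2 and 1 and SS replicate 1, those with the most leukocyte transcripts. The means were 275 ± 109 CPM in SA and 290.5 ± 49.01 CPM in SS, with a log2 fold change of 0.08 (SE 0.29). This sign turned in 5 of 17 alternative settings, and the value was -0.25 with the pan-leukocyte sum as a covariate.

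Ace, on chromosome 11 (105967945 to 105989964), was at 52.4, 37.4, 61.5 and 137 CPM in SA and at 29.5, 54.2, 82.7 and 55.2 CPM in SS. SA replicate 4 stood highest and SS replicate 1 lowest, and the other 6 libraries intermixed. The log2 fold change was -0.38 (SE 0.42), and it turned to 0.14 without SA replicate 4. Ace shares 295 exonic bases with the antisense gene Gm11651, which was listed with 0 counts in each library, and the strand setting of the counting is not given.

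Of the 6 members that passed the filter on low counts, Enpep, the gene whose difference led to this set, had the log2 fold change of greatest size. Enpep, on chromosome 3 (129269175 to 129332720), was at 9.81, 8.65, 8.90 and 14.5 CPM in SA replicates 1 to 4 and at 24.8, 52.4, 57.0 and 45.7 CPM in SS replicates 1 to 4. Each SS library lay above each SA library, and the lowest SS value belonged to SS replicate 1. The raw counts behind them ran from 249 to 395 in SA and from 703 to 1614 in SS. The mean was 10.5 ± 2.75 CPM in SA and 44.98 ± 14.3 in SS, 4.29 times higher, with a log2 fold change of 2.10 (SE 0.35). With each library left out in turn it ran from 1.97 (without SS replicate 3) to 2.30 (without SS replicate 1). It was 2.02 without SS replicate 2, the library that reads as female.

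Aminopeptidase N differed in the same direction and by less. Anpep, on chromosome 7 (79821803 to 79861059), was at 22.9, 27.9, 18.1 and 25.3 CPM in SA and at 33.8, 59.0, 51.1 and 71.9 CPM in SS. The genotypes did not overlap, and SS replicate 1 was again the lowest SS library. The mean was 23.6 ± 4.16 CPM in SA and 53.9 ± 15.9 in SS, 2.29 times higher, with a log2 fold change of 1.19 (SE 0.30) and a range from 1.03 (without SS replicate 4) to 1.36 (without SS replicate 1). Within a library, where depth cancels, Enpep counts were 30.97% to 57.4% of Anpep counts in SA and 63.6% to 112% in SS. These shares did not overlap either, but they contain Enpep, whose difference led to this set, and are given as a description only.

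The insulin-regulated aminopeptidase showed no such pattern. Lnpep, on chromosome 17 (17521410 to 17625050), was at 213, 238, 256 and 166 CPM in SA and at 254, 215, 234 and 208 CPM in SS. It varied least of the members, with a highest library 1.54 times the lowest. Its log2 fold change was 0.06 (SE 0.19), and it ran from -0.05 to 0.13 with each library left out. As a share of Lnpep counts, Enpep was at 3.48% to 8.75% in SA and 9.74% to 24.4% in SS, and Anpep at 7.10% to 15.2% and 13.3% to 34.5%. The Enpep shares separated the genotypes, while the Anpep shares overlapped between SA replicate 4 and SS replicate 1. As Enpep had led to this set, its shares add no independent evidence.

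**Figure D2:**
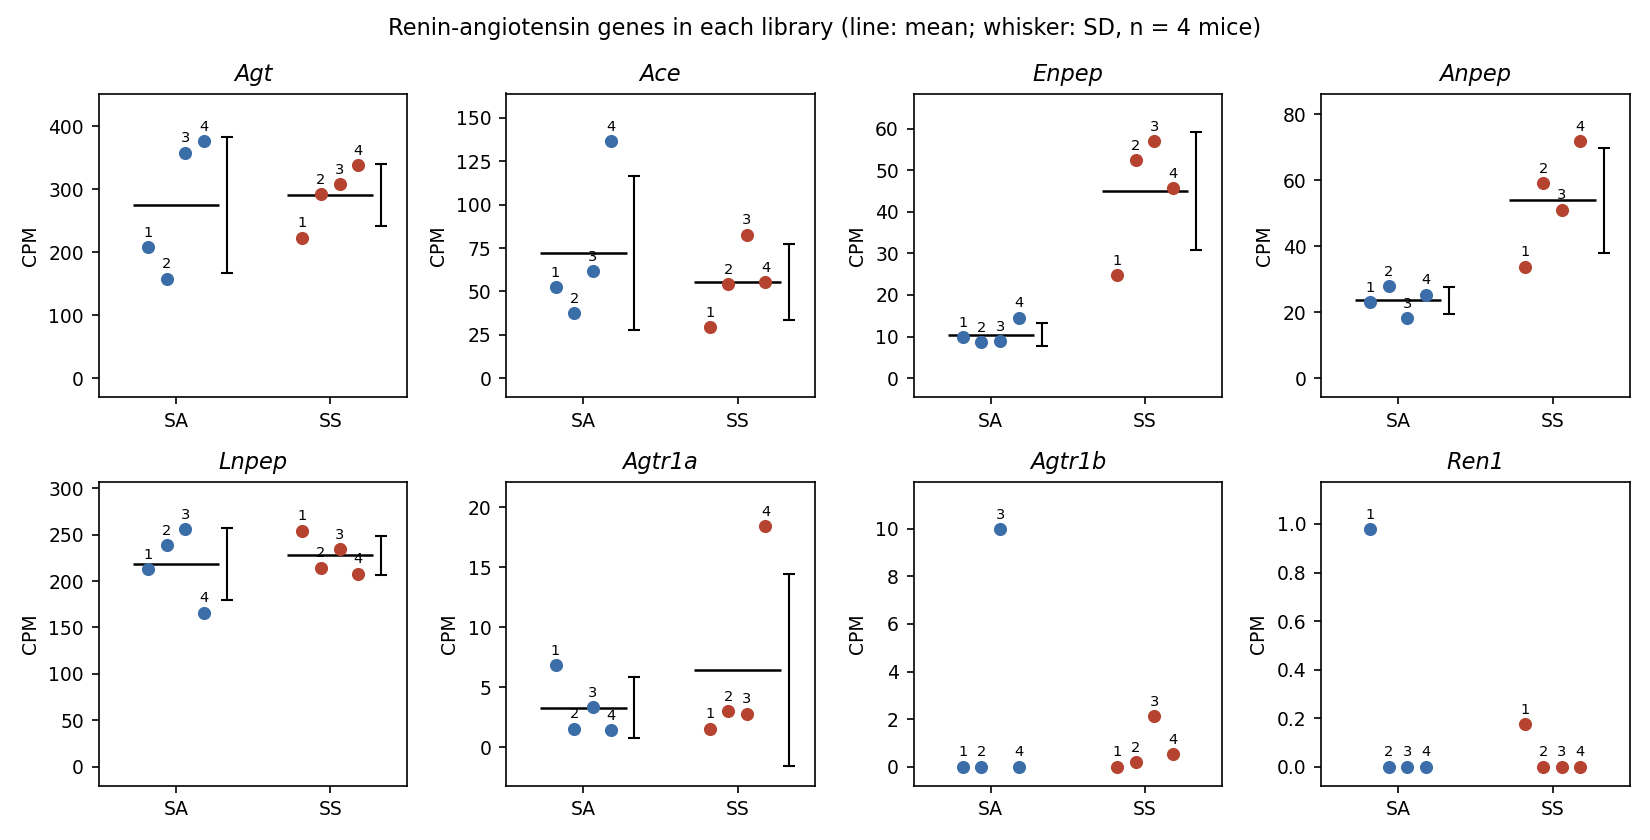
CPM of 8 members in each library on linear axes, 1 point per mouse with its replicate number (SA blue, SS red), a line at the mean and a whisker of 1 SD (n = 4), both left out for Agtr1b and Ren1, where libraries are at 0. Enpep and Anpep separate by genotype, Agt, Ace and Lnpep overlap, and Agtr1a is high in SS replicate 4 alone.

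The AT1 receptor transcripts were sparse and uneven. Agtr1a, on chromosome 13 (30336441 to 30382867), had 182, 45, 100 and 39 counts in SA replicates 1 to 4 and 44, 83, 79 and 571 counts in SS replicates 1 to 4. SS replicate 4 alone stood apart, at 18.4 CPM where the other 7 ranged from 1.44 to 6.84 CPM. The mean was 3.30 ± 2.52 CPM in SA and 6.44 ± 8.01 in SS, with a log2 fold change of 0.97 (SE 0.92). Without SS replicate 4 it was -0.42, and with the pan-leukocyte covariate -0.21. Agtr1b, on chromosome 3 (20314473 to 20367177), had 298 counts in SA replicate 3, 60, 16 and 5 in SS replicates 3, 4 and 2, and 0 in the other 4 libraries. The library richest in Agtr1b was thus not the one richest in Agtr1a. Over 2011 aligned bases the longest transcripts of both genes were 75.5% identical, with identical runs of up to 66 bases, so reads in such runs are uncertain as to their gene.

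The AT2 receptor gene Agtr2, on chromosome X (21484544 to 21489164), had 0 counts in all 8 libraries. With a floor of 3 counts per library, a level up to 0.0967 to 0.113 CPM would be allowed, which covers counting error only.

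3 of the 9 members (Ren1, Agtr1b and Agtr2) did not pass the filter on low counts. Of the 6 tested, 5 were higher and 1 was lower in SS, where 49% of all tested genes were higher. edgeR called 0 of the 6 at an adjusted p under 0.05, as it called 0% of 17316 genes. At an unadjusted p under 0.05 it had 2 of the 6, Enpep and Anpep, against 6.98% of all genes. DESeq2 called the same 2, against 1.65% of the genes to which it gave an adjusted p, and limma-voom called 0 of 6 and 0% of all. The same 2 did not overlap between genotypes (3.91% of all tested genes in either direction), both being higher in SS (2.36%). As the contrast had a part in the choice of the genes, nothing is read from these counts.

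Genes of 12 cell type marker lists were summed in each library, and the sum of 1 list separated the genotypes. Pericyte and smooth muscle genes (15 of 15 measured, none at 0 throughout) summed to 1083 to 1487 CPM in SA and 2044 to 7453 CPM in SS, without overlap (two-sided exact permutation p = 0.0286, the smallest that 70 arrangements can give, adjusted p = 0.343 over 12 marker lists). The log2 ratio of the mean sums was 1.47, and 0.82 without SS replicate 4. Among them Rgs5, a regulator of G-protein signalling in pericytes, ranged from 192 to 459 CPM in SA and from 725 to 4998 in SS, with a log2 fold change of 2.48 (SE 0.60), or 1.40 without SS replicate 4. Notch3, a receptor of mural cells, ranged from 61.4 to 95.7 CPM in SA and from 133 to 213 in SS. These 2 genes were among the 3 of 15 without overlap (2.36% of all genes were higher without it), and the other 12 overlapped. By the sign of the log2 fold change 13 of the 15 were higher in SS and 2 lower, with a median of 1.06. Rgs5 made up most of the difference between the mean sums: its mean was 346.5 CPM in SA and 1936 in SS, within mean sums of 1285 and 3563 CPM. The highest pericyte sum was in SS replicate 4, where Anpep and Agtr1a were highest too, while Enpep was higher in SS replicates 2 and 3. In SA replicate 1, which had the highest SA level of Agtr1a, the pericyte sum was the lowest of all 8. The part of pericyte transcripts in the Enpep and Anpep differences was not tested.

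B cell genes (9 of 9 measured, none at 0 throughout) had sums of 91.9 to 1190.5 CPM in SA and 11.96 to 128 CPM in SS, which overlapped (exact permutation p = 0.0571, adjusted p = 0.343). Of the myeloid lists that could carry Anpep, neutrophil genes (13 of 13) summed to 6056 to 34781 CPM in SA and 1359 to 16812 CPM in SS, and macrophage and monocyte genes (12 of 12) to 222 to 1182 and 221 to 1095 CPM. Endothelial genes (11 of 11), a further site of Ace, summed to 19.9 to 122 CPM in SA and 21.7 to 149.9 CPM in SS. Marrow stromal identity genes (12 of 12) summed to 19289 to 43421 CPM in SA and 31802 to 46172 CPM in SS. Mast cell and basophil (6.70 to 457 CPM over all libraries), megakaryocyte (6.40 to 341), erythroid (318 to 1345), adipocyte (212 to 948) and osteoblast and osteocyte (1433 to 5936) genes overlapped between genotypes. No marker list passed the permutation test after adjustment (adjusted p from 0.343 to 0.914). With 70 arrangements and 12 lists, a list that alone reaches the smallest permutation p gets an adjusted p of 0.343. The adjusted test could thus hardly pass any list, and nothing is read from its outcome. The part of any of these cell types in the differences of the members was not tested.

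With the pan-leukocyte sum as a covariate the log2 fold change of Enpep was 1.78 (SE 0.36, edgeR adjusted p = 0.357). That of Anpep was 0.96 (SE 0.35, edgeR adjusted p = 0.912). Without SA replicates 1 and 2 and SS replicate 1, which leaves 2 SA and 3 SS libraries, the log2 fold changes were 2.14 and 1.48. The part of leukocyte transcripts in the Enpep and Anpep differences was not tested.

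**Figure D3:**
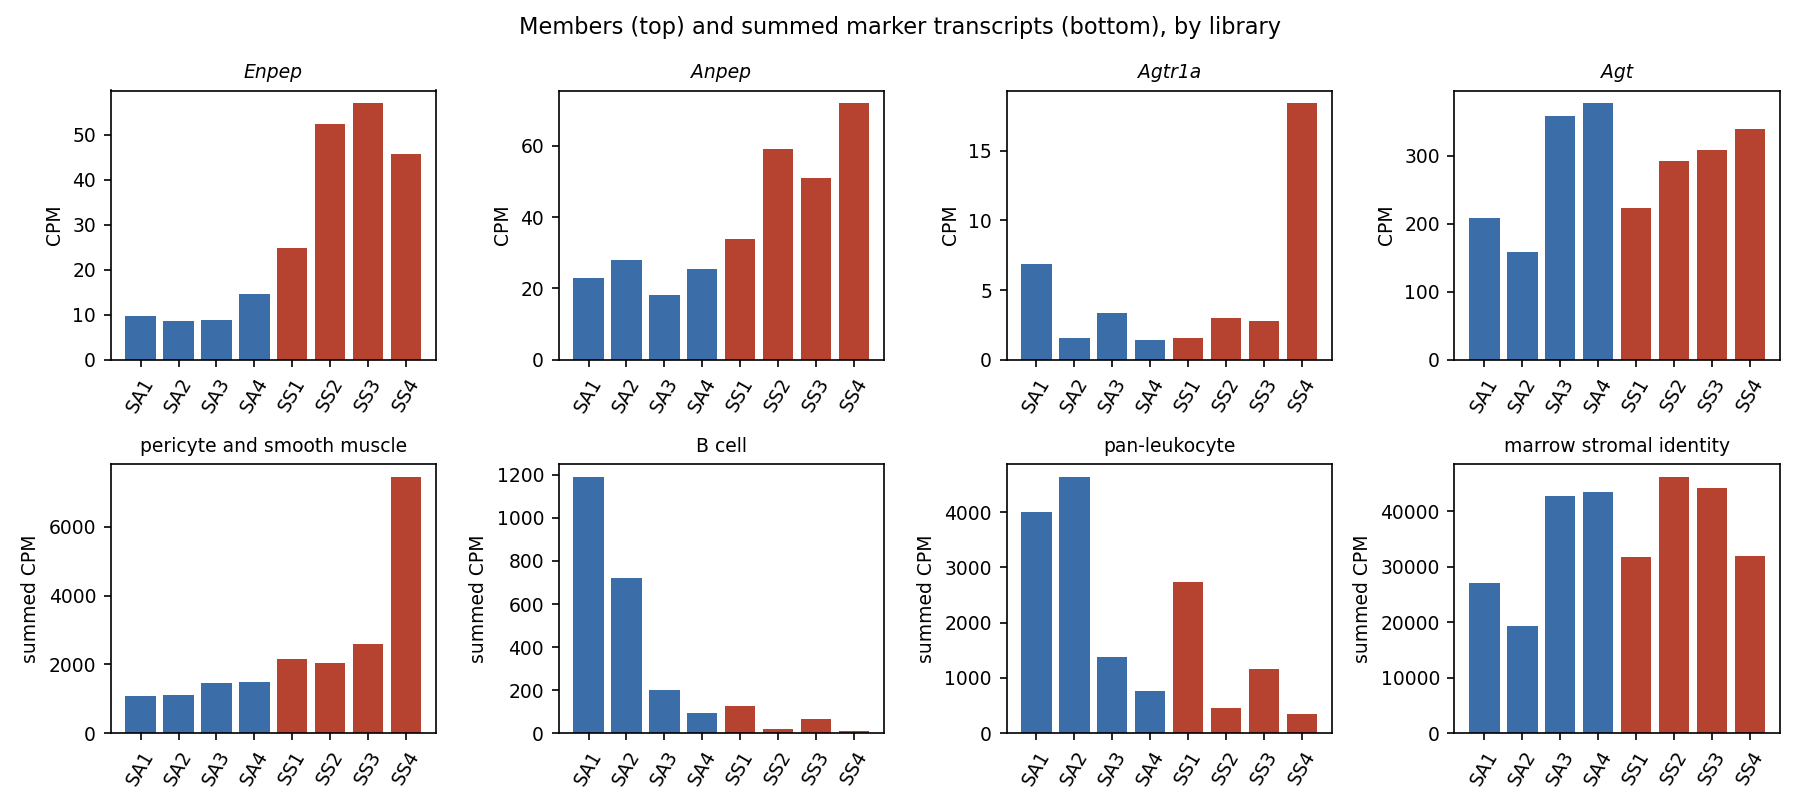
CPM of Enpep, Anpep, Agtr1a and Agt (top) and summed CPM of the pericyte and smooth muscle, B cell, pan-leukocyte and marrow stromal identity genes (bottom) in each library, bars from 0, SA blue and SS red. The pericyte sum and Agtr1a peak in SS replicate 4, and Agt is low in the 3 libraries with the highest pan-leukocyte sums.

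The other genes of the system were taken from lists by role. Over 5 lists 52 genes were tested, and edgeR called 0 in either direction. At an unadjusted p under 0.05, 5 were higher in SS (4.03% of all genes) and 5 lower (2.96% of all genes). Their median log2 fold change was -0.06, beside -0.01 over all genes. Without overlap between genotypes, 6 were higher (2.36% of all genes) and 3 lower (1.55%). The 6 include Mme, Gna11, Itpr2, Rock2 and Cyr61, and the 3 were Prcp, Klk1 and Prkca.

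Of 15 further peptidases listed for making or breaking angiotensins, with the kinin-releasing Klk1 among them, 13 were measured and 10 tested. Of these 10, 3 were higher and 7, Klk1 included, lower in SS, with a median of -0.29. Mme, which encodes neprilysin, a peptidase that turns angiotensin I into angiotensin 1-7, was at 710, 532, 1271 and 1196 CPM in SA and at 1400.5, 2534, 2506 and 1587 CPM in SS. It separated the genotypes, like Enpep and Anpep, from a far higher level (SS minus SA on the log2 scale 1.11, SE 0.32, edgeR adjusted p = 0.628). The Mme difference was 0.82 with the pan-leukocyte covariate and 0.84 without SA replicates 1 and 2 and SS replicate 1. Klk1, a tissue kallikrein that releases kinins, had 109, 75, 37 and 13 counts in SA and 1, 0, 0 and 0 counts in SS (edgeR adjusted p = 0.411, DESeq2 adjusted p = 0.000123). It belongs to a family of close copies, so its reads are uncertain. Prcp, the prolylcarboxypeptidase that also cleaves angiotensin II and is named here for its lack of overlap, ranged from 63.3 to 81.0 CPM in SA and from 41.5 to 62.9 in SS (SS minus SA on the log2 scale -0.38, SE 0.22, adjusted p = 0.754). The mast cell chymases Cma1 and Mcpt4, which can make angiotensin II without Ace, had 0 counts in all libraries. Cma1 and Mcpt4, with Mas1, Mrgprd and Bdkrb2 among the receptors, were named after their low counts were seen.

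Of 9 receptors and receptor partners 6 were tested, 2 higher and 4 lower in SS, with a median of -0.20. Mtus1, which encodes a partner of the AT2 receptor, averaged 101 ± 30.9 CPM in SA and 55.9 ± 20.9 in SS (SS minus SA on the log2 scale -0.86, SE 0.33, edgeR adjusted p = 0.695). Arap1, a trafficking protein linked to AT1 receptor recycling, was at 50.9 ± 17.1 and 35.3 ± 20.5 CPM (SS minus SA on the log2 scale -0.53, SE 0.44, adjusted p = 0.822). Its value was -0.01 with the pan-leukocyte covariate. Mas1, the receptor of angiotensin 1-7, had 1 to 42 counts in SA libraries and 11 to 85 in SS. Mrgprd and Bdkrb2, receptors of alamandine and of kinins, had none.

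Among the other M1 aminopeptidases 7 were tested, 3 higher and 4 lower, with a median of -0.19. Lta4h, which makes leukotriene B4, was at 122, 211, 43.5 and 39.2 CPM in SA and at 67.0, 35.3, 35.8 and 27.9 CPM in SS. It was highest in the 3 libraries with the most leukocyte transcripts, and its log2 fold change of -1.32 (SE 0.52, edgeR adjusted p = 0.695) was -0.26 with the pan-leukocyte covariate. 2010111I01Rik, an aminopeptidase gene also named Aopep, showed a log2 difference of 0.45 (SE 0.28, adjusted p = 0.766).

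Of 21 genes of AT1 receptor signalling 10 were higher and 11 lower, with a median of -0.02. Gna11, a G protein subunit through which AT1 receptors activate phospholipase C, averaged 38.2 ± 12.2 CPM in SA and 72.8 ± 10.6 in SS (SS minus SA on the log2 scale 0.93, SE 0.28, edgeR adjusted p = 0.656). Prkca, a protein kinase C gene, was at 61.3 ± 9.36 and 31.9 ± 6.28 CPM (SS minus SA on the log2 scale -0.94, SE 0.25, edgeR adjusted p = 0.595, DESeq2 adjusted p = 0.0140). Itpr2, an inositol trisphosphate receptor, and Rock2, a serine/threonine kinase, had log2 fold changes of 0.31 (SE 0.16) and 0.23 (SE 0.16) and are named here for their lack of overlap.

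8 genes known to respond to angiotensin II in cultured vessel cells or fibroblasts were tested, 5 higher and 3 lower in SS, with a median of 0.34. Cyr61, a matricellular protein, was at 339, 319, 490 and 544 CPM in SA and at 583, 1143, 1144 and 680 CPM in SS (SS minus SA on the log2 scale 1.07, SE 0.28, edgeR adjusted p = 0.595). Its genotypes did not overlap. The genes of this list respond to many other stimuli as well.

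**Figure D4:**
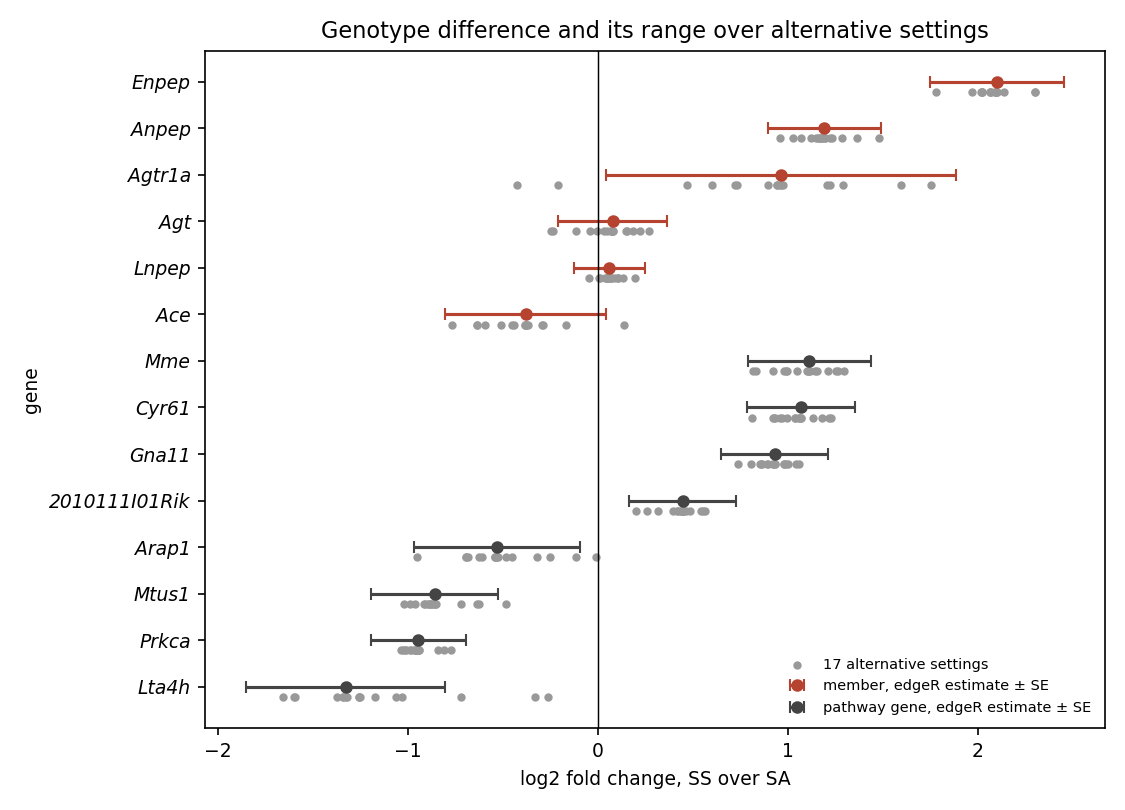
log2 fold change of SS over SA for the 6 tested members (red) and 8 pathway genes (dark grey), with the edgeR estimate and its SE, and the same value in 17 alternative settings as small grey points; Klk1, at nearly 0 counts in SS, is left out. Enpep and Anpep stay above 0 in every setting shown, while Agtr1a, Agt, Lnpep and Ace have points on both sides of 0. As Enpep and Anpep do not overlap between genotypes, settings that leave out libraries could hardly turn their sign.

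The search for genes with the most similar pattern covered 10734 genes whose mean reached 5 CPM, with unnamed gene models left out. The nearest genes were those with the smallest mean absolute difference of log2 CPM over the 8 libraries, each gene centred on its own mean. For Enpep these were Fndc1 (0.17), a fibronectin-domain protein, Dkk3 (0.26), a secreted protein of the Dickkopf family, Mmp11 (0.26), the metalloproteinase stromelysin-3, Dclk1 (0.28), a microtubule-binding kinase, and Trabd2b (0.31). Fndc1 was at 28.2 to 34.7 CPM in SA and at 81.1, 189.9, 251 and 132 CPM in SS replicates 1 to 4, the same order of libraries as Enpep in SS. For Anpep they were the basement membrane collagen gene Col4a2 (0.19), Etv5 (0.21), Il1rn (0.23), Prpf18 (0.23) and Msantd2 (0.23). Of these 5, Msantd2 alone overlapped between genotypes. For Agt they were Zcchc24, Extl2, Egfr, H2-M3 and Nipsnap2 (0.11 to 0.12), for Ace Rras, Col25a1, Irgq, Cd1d2 and Man2c1 (0.17 to 0.23), and for Lnpep Rc3h2, Zmiz1, Dnajc13, Wdfy3 and Usp25 (0.08 to 0.09). A gene that varies little is near to many others, so distances compare only within a member, and the direction of such neighbours follows from how they were chosen.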

How the data were processed

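The data are raw read counts per gene symbol, deposited by the authors with 1 column per mouse library. Per the submitters' processing notes, the tools were STAR, featureCounts, bcl2fastq and DESeq2 (no version or role stated) and the builds GRCm38 and mm10. Annotation, strand setting and read length are not stated in the labels. The test was that of edgeR 4.0.16 under R 4.3.3 (filterByExpr, TMM, robust quasi-likelihood F test, Benjamini-Hochberg over 17316 genes, threshold 0.05); SE is the absolute log2 fold change over the square root of F. CPM used TMM-adjusted totals. Libraries held 24797857 to 31117007 counts. For marker sums an exact permutation test, two-sided, was used. Positions and exon lengths are from GENCODE M21 on GRCm38 (91.7% of symbols matched), promoters from RefSeq on GRCm38.p6.

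The genes, lists and alternatives were chosen with earlier results of these data known. Named are all members, gate and pericyte genes, the 2 smallest p of each pathway list (mean of at least 1 CPM), and the 5 nearest genes of members with a mean of at least 5 CPM. Scripts were tested on simulated data. Alternatives were DESeq2 1.42.0, limma-voom (limma 3.58.1), other scalings and filters, the replicate number as a block, a leukocyte covariate and omission of libraries. The authors' second table, of scaled counts, was not used here. Some genes of the pathway lists that the rule would name are not reported here.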

Additional observations from a re-analysis of the deposited data

Results flagged for a closer look

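In groups of 4, the library farthest out was compared with its nearest neighbour relative to the range. Of 48 groups with any spread, over 25 named genes, 7 had a library that stood apart. In 4 of the 7 the other 3 libraries were at 0, which gives such a gap whatever the fourth value is, so the rate of about 1 in 20 by chance does not apply to them. Agtr1a reached 18.4 CPM in SS replicate 4, where the next SS library had 3.01 CPM. Rgs5 was at 4998 CPM in the same library and 1088 CPM in the next. Agtr1b was at 9.97 CPM in SA replicate 3 and 0 in the other SA libraries. Ren1 was at 0.978 CPM in SA replicate 1 and at 0.176 CPM in SS replicate 1, with 0 in the others of each genotype. Pecam1 reached 31.4 CPM in SS replicate 1, where the next SS library had 4.77 CPM. Klk1 was at 0.0352 CPM (1 count) in SS replicate 1 and 0 in the other SS libraries.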

How the results depend on the processing

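In the fits tried, Enpep and Anpep kept a higher level in SS in all 17 alternatives, from 1.78 to 2.30 and from 0.96 to 1.48 on the log2 scale. As their genotypes did not overlap, leaving out libraries could hardly turn these signs, and Enpep had led to this set. Their adjusted p ran from 3.10e-06 and 0.0140 (both DESeq2) to 0.929 (edgeR without SS replicate 3, for both genes). The sign of Agt turned in 5 alternatives, of Agtr1a in 2, and of Ace and Lnpep in 1 each. DESeq2 called 319 genes, 2 members and 2 pathway genes (Klk1 and Prkca), where edgeR called 0. Without a filter on low counts edgeR called 5 genes, none a member or pathway gene. With each library left out, the calls over all genes ran from 0 to 1, the 1 being without SS replicate 1. With the replicate number as a block edgeR called 0 genes and Enpep was at 2.07; same-numbered libraries shared only a number, with correlations of their deviations from -0.19 to 0.27. Ptprc turned to 0.052 with the pan-leukocyte covariate, a sum that holds Ptprc itself, so a value near 0 is built in. Pdgfra turned to -0.031 without SA replicates 1 and 2 and SS replicate 1. With single libraries left out Pdgfra ran from 0.099 to 0.53. The log2 ratio of summed endothelial genes ran from -1.26 to 0.27 and that of macrophage genes from -0.55 to 0.37 with each library left out. The pericyte sum was no longer at p under 0.05 without any 1 SA library (p from 0.0857 to 0.114, exact permutation). The sums still did not overlap between genotypes then, but the test compares means, in which the high sum of SS replicate 4 weighs heavily. The cause of the other changes was not tested. By the longest transcript, Lnpep was at 18.5 CPM per kilobase in place of 15.8. Low counts limit Agtr1a, Agtr1b and Ren1.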
